A study of Homo sapiens with 10 samples.

Results

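Huh7 and 97H are human liver cancer cell lines, and the deposited table allows them to be compared in 2 matched conditions. The comparison rests on 4 of the 10 libraries of the study: Huh7 treated with CDK4/6 inhibitor, Huh7 control, 97H treated with CDK4/6 inhibitor and 97H control, each sequenced as 1 library. They were chosen by their labels alone, line against line, and paired by treatment. Cells labelled control received vehicle. The drug blocks the cyclin D kinases CDK4 and CDK6 and is not named, and neither its dose nor its time is stated in the sources used here. Another liver cancer line, PLC, had the same 2 conditions, and 97H and PLC were also treated with the XPO1 inhibitor KPT330, alone or with the CDK4/6 inhibitor. The PLC libraries of the same 2 conditions enter the expression filter and help to set the spread, and PLC levels are set beside those of the 2 lines. The 97H libraries with the XPO1 inhibitor show whether a level held under another drug. Each line is 1 line grown and sampled once per condition as far as the labels say, and a line stands for itself and not for a class of tumours. With 1 library for each line and treatment, a p-value here sets a difference against how unevenly the treatment acted across the lines. That spread can hold differing drug responses of the lines as well as technical variation, and it is not a spread between replicates.

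Hepatocytes make most plasma proteins, and a small network of transcription factors, among them HNF4A, the FOXA proteins and CEBPA, keeps those genes active. Liver cancer lines keep this programme to different degrees, and some also express fetal liver genes such as AFP and GPC3. Another axis on which liver tumours differ is NRF2, encoded by NFE2L2, a transcription factor that KEAP1 marks for degradation and that turns on genes for glutathione, thioredoxin, NADPH and carbonyl metabolism through antioxidant response elements.

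Expression was deposited as FPKM, a read level corrected for gene length and for library size. Each gene was tested with limma on log2(FPKM + 1) over the 6 control and CDK4/6 inhibitor libraries of Huh7, PLC and 97H, with line and treatment in the model. The reported difference is Huh7 minus 97H on that log2 scale, the mean of the control pair and the CDK4/6 inhibitor pair, and a gene was called at an adjusted p under 0.05. A gene entered if it averaged at least 1 FPKM over the 6 libraries, which left 10480 genes. A gene that passed this filter mainly through the line where it is high was bound to differ, and read depth is unknown because counts were not used here. The number of genes above 0 FPKM was 15264 and 15143 in the Huh7 libraries and 14481 and 14214 in the 97H libraries. Each pair of values given for a line is that of its CDK4/6 inhibitor and control libraries.

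Promoters that hold at least 1 of 2 motifs are shown first, picked for the motif and after values were seen, from lists in which most called members with a known promoter lack it. They were taken from RefSeq on GRCh38.p14, each the 250 bases before the gene start, written 5′ to 3′ on the strand of the gene. The first 4 belong to plasma protein genes that were high in Huh7 and low in 97H: ALB at chr4:73404037-73404286 on the plus strand, AFP at chr4:73435971-73436220 on the plus strand, FGB at chr4:154562730-154562979 on the plus strand and FGA at chr4:154590743-154590992 on the minus strand. Capitals mark the motif GTTAAT or its reverse complement.
ALB: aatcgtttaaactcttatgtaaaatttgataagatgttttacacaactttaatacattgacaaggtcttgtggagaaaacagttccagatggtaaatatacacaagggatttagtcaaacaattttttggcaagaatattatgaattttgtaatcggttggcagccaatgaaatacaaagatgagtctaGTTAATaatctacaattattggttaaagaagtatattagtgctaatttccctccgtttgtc
AFP: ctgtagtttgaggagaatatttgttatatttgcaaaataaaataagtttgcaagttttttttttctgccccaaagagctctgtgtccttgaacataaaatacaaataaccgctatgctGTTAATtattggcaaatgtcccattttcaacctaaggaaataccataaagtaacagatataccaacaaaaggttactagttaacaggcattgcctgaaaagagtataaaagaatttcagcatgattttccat
FGB: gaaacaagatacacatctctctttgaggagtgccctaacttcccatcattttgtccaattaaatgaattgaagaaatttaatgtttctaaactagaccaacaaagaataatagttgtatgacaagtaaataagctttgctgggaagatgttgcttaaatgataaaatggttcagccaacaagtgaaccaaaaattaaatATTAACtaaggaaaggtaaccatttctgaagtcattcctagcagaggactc
FGA: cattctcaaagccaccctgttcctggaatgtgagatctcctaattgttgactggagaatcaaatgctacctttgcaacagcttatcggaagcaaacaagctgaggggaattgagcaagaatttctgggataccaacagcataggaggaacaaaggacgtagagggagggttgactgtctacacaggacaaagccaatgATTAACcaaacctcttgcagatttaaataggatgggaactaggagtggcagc

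The other 3 belong to genes of the NRF2 list that were low in Huh7 and high in 97H: GPX2 at chr14:64942746-64942995 on the minus strand, TXNRD1 at chr12:104215529-104215778 on the plus strand and CBR1 at chr21:36069774-36070023 on the plus strand. Capitals mark the antioxidant response element core TGACNNNGC or its reverse complement, and in GPX2 also the motif GTTAAT.
GPX2: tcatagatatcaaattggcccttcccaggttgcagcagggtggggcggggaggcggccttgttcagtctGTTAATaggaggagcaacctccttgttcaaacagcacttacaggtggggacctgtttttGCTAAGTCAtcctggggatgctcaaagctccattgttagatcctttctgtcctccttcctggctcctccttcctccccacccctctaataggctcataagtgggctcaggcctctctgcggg
TXNRD1: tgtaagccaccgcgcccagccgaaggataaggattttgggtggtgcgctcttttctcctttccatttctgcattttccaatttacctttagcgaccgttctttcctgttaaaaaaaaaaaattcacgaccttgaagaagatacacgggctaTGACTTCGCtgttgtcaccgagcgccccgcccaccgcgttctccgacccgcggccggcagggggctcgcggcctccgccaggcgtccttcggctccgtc
CBR1: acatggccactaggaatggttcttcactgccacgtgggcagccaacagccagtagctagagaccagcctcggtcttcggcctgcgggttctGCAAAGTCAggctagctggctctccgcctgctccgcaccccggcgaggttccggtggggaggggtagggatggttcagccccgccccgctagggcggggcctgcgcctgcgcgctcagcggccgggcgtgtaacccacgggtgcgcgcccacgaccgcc

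A promoter was found for 8626 of the 10480 tested genes. Both strands were searched for the 2 motifs, which do not overlap in GPX2, the promoter printed here that holds both. The motif GTTAAT stood in 25% of the promoters of plasma protein genes called higher in Huh7 (8 of 32), in 5.49% of those of all genes called higher (65 of 1184) and in 3.16% of those of all tested genes (273 of 8626). Among all tested plasma protein genes, called or not, it stood in 24.3% (9 of 37). The core TGACNNNGC stood in 29.4% of the promoters of NRF2 list genes called lower in Huh7 (5 of 17), in 12.5% of those of all genes called lower (97 of 774) and in 12.4% of those of all tested genes (1069 of 8626). Among all tested NRF2 list genes it stood in 27.3% (6 of 22). In both lists the share is near that of the called members, so it describes the list and not the call. Of all 27305 promoters in the table, 6.22% held GTTAAT and 11% held TGACNNNGC. Another motif, TGNACTTTG, was also searched and is not marked above. It stood in 9.38% of the promoters of plasma protein genes called higher in Huh7 (3 of 32) and in 0.614% of those of all tested genes (53 of 8626). Among all tested plasma protein genes it stood in 8.11% (3 of 37), so this share too describes the list and not the call. It stood in 1.27% of the promoters of all genes called higher (15 of 1184) and in 0.904% of those called lower (7 of 774). Of 10 promoters of apolipoprotein genes called higher, 0 held it. A match describes the letters of the window only.

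The lines differed in the level of many genes, and most tested genes differed in the same direction with and without the CDK4/6 inhibitor. Of the 10480 tested genes, 2532 were called: 1523 were higher in Huh7, 14.5% of all tested, and 1009 were lower, 9.63% of all tested, so that 24.2% were called in either direction. Over all tested genes, 83.3% had the same sign in the CDK4/6 inhibitor pair and in the control pair. The call favours genes whose 2 pair differences are alike, so the same sign in all 2532 called genes follows largely from the selection. Differences of at least 2 on the log2 scale were called for 769 genes higher and 481 genes lower in Huh7, while 615 and 381 tested genes reached 2 in each pair. With a pseudocount of 0.1 in place of 1, the called genes past 2 numbered 1199 and 681. Over the tested genes, the 2 pair differences had a median absolute gap of 0.39 and lay within 0.5 of each other for 62.1% of genes. Their Pearson r was 0.916, a description across genes, which are not independent replicates.

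**Figure D1:**
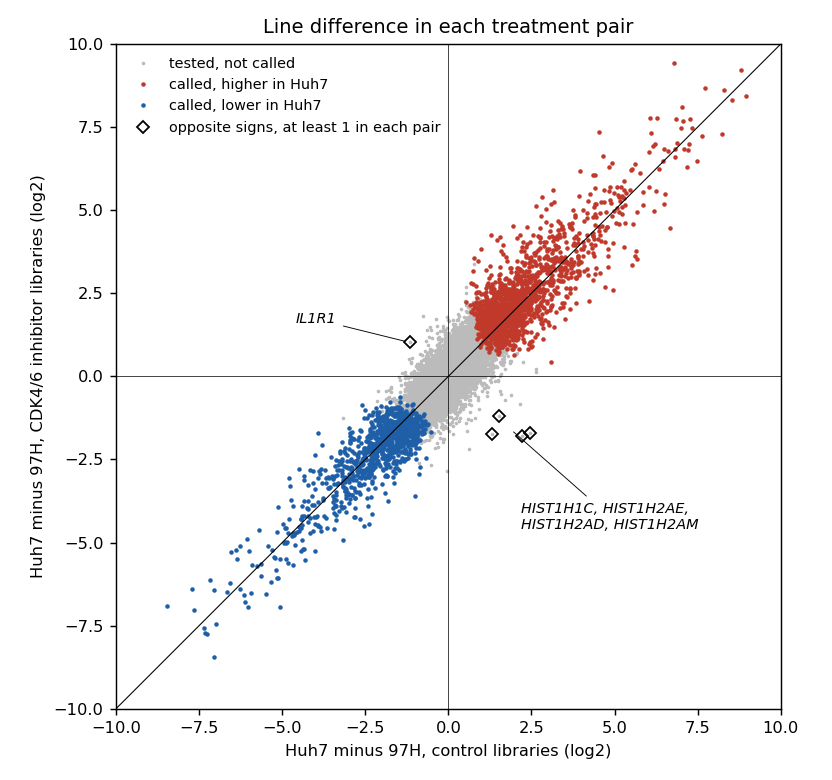
Difference between Huh7 and 97H for each tested gene in the control libraries (x axis) and in the CDK4/6 inhibitor libraries (y axis), both on the log2(FPKM + 1) scale, with the line of equal difference. The called genes, 1523 higher and 1009 lower in Huh7, lie in the quadrants of equal sign, as the call largely requires, and 5 genes with opposite signs are named.

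The median difference of all tested genes was 0.19, and differences are to be read against it. Median ratio scaling of the libraries brought it to 0.005 and quantile normalization to -0.035. The share of called genes that were higher in Huh7 was 60.2% as deposited, against 1435 higher and 1257 lower with median ratio scaling and 1431 higher and 1435 lower with quantile normalization. The count of calls depends on single libraries: 1068 genes were called without the Huh7 control, 1066 without the Huh7 CDK4/6 inhibitor library and 1407 without the 97H CDK4/6 inhibitor library, but 5378 and 5371 without the control or the CDK4/6 inhibitor library of PLC. Of the 2532 genes, 833 (32.9%) were called in all 6 fits that left out 1 library. The fits without a PLC library kept every call made with all 6 libraries. A lone PLC library is fitted exactly and adds nothing to the spread. In these fits the variance of each gene also came wholly from the trend over all genes. A lost call thus always comes from a fit without a Huh7 or a 97H library. Genes are named below with their calls, and those that failed in any of the 6 fits that left out 1 library are pointed out.

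Counts of list members called, here and below, are to be read against the 14.5% higher and 9.63% lower of all tested genes. A share near or under these, such as the 12% of interferon-stimulated genes higher in Huh7, says nothing particular of a list. Among the gene lists, plasma proteins had the most members higher in Huh7. Of 52 tested members, 44 were higher and 1 was lower, with a median difference of 4.19, and 39 and 0 of these were called in all 6 fits that left out 1 library. A further 17 of the 69 listed did not reach the filter. The summed level of the 69 genes was 14312 and 10552 FPKM in Huh7, against 131 and 126 FPKM in 97H. In 97H, 16 of the 69 were listed at 0 in both libraries, against 1 in Huh7, so RNA of these plasma protein genes was scarce in 97H. In bulk RNA of a cell line, fewer cells that express a gene and less RNA per cell cannot be told apart.

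ALB, serum albumin, had 1062 and 1261 FPKM in Huh7, against 2.32 and 2.42 FPKM in 97H. The lines did not overlap, and the difference was 8.42 ± 0.38 (SE; adjusted p = 2.15e-06). VTN, the adhesion protein vitronectin, had the largest difference of any gene higher in Huh7, with 2507 and 1314 FPKM in Huh7 and 3.25 and 1.95 FPKM in 97H (9.001 ± 0.42, adjusted p = 2.15e-06). TTR, the thyroxine carrier transthyretin, had 3168 and 407.0 FPKM in Huh7, a wide gap between its 2 libraries, and 3.63 and 2.65 FPKM in 97H (8.11 ± 0.57, adjusted p = 1.13e-05). FGB, the fibrinogen beta chain, had 269 and 255 FPKM in Huh7 and 0.504 and 0.989 FPKM in 97H, and TF, transferrin, had 211 and 241 FPKM in Huh7 and 0.669 and 0.612 FPKM in 97H. Both stood over 7 log2 units higher in Huh7, at 7.25 ± 0.41 and 7.11 ± 0.45. The exception was IGFBP1, an insulin-like growth factor binding protein, with 0.508 and 0.629 FPKM in Huh7 and 11.4 and 7.49 FPKM in 97H (-2.71 ± 0.54, adjusted p = 0.00475). Its call was lost without the Huh7 control (-2.51, adjusted p = 0.0958) and without the 97H CDK4/6 inhibitor library (-2.01, adjusted p = 0.115).

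**Figure D2:**
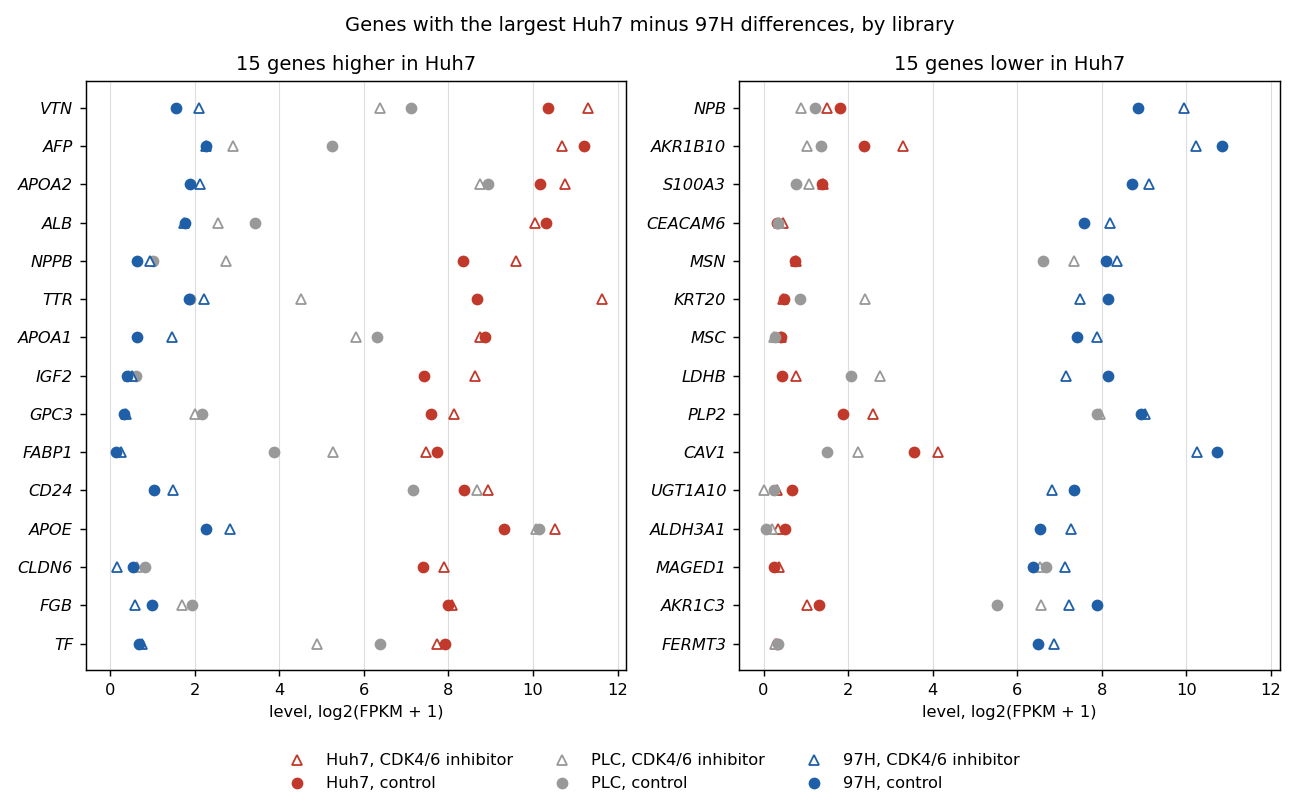
Level of the 15 genes with the largest positive and the 15 with the largest negative difference on the log2(FPKM + 1) scale, each point 1 library; triangles are CDK4/6 inhibitor libraries and circles controls. Both Huh7 libraries lie above both 97H libraries for each of the 15 genes on the left and under them for each of the 15 on the right, while PLC falls at either end or between.

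Several of the genes with the largest differences stood outside the lists. NPPB, which encodes the B-type natriuretic peptide of the heart, had 773 and 326 FPKM in Huh7 and 0.911 and 0.558 FPKM in 97H (8.19 ± 0.45, adjusted p = 4.05e-06). NPB, neuropeptide B, had the largest difference of any gene lower in Huh7, with 1.84 and 2.52 FPKM in Huh7 and 993 and 467 FPKM in 97H (-7.75 ± 0.46, adjusted p = 5.34e-06). S100A3, a calcium-binding protein, had 1.65 and 1.602 FPKM in Huh7 and 557 and 419 FPKM in 97H (-7.53 ± 0.40, adjusted p = 3.3e-06). In each of these genes the levels of the lines were far apart in both treatments. FERMT3, a kindlin of blood cells that activates integrins, had 0.234 and 0.254 FPKM in Huh7 and 117 and 88.7 FPKM in 97H (-6.37 ± 0.43, adjusted p = 1.09e-05).

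Apolipoproteins, which carry lipid in plasma, were also mostly higher in Huh7: 17 of 24 tested were higher in Huh7 and 1 was lower, with a median of 2.46. APOA2, a structural protein of high-density lipoprotein, had 1717 and 1147 FPKM in Huh7, against 3.36 and 2.68 FPKM in 97H (8.46 ± 0.33, adjusted p = 1.7e-06). APOA1, the main protein of the same particle, had 427 and 463 FPKM in Huh7 and 1.75 and 0.558 FPKM in 97H, and APOE, a ligand of lipoprotein receptors, had 1472 and 633 FPKM in Huh7 and 6.15 and 3.78 FPKM in 97H. The 1 lower member was APOL1, a trypanolytic plasma protein, with 0.390 and 0.224 FPKM in Huh7 and 22.1 and 10.98 FPKM in 97H (-3.67 ± 0.40, adjusted p = 0.000133). Of these calls, 11 higher and 1 lower held in all 6 fits that left out 1 library.

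The transcription factors of the hepatocyte network had a smaller median difference than the genes for secreted proteins. Of 24 tested, 16 were higher and 1 was lower in Huh7, with a median of 1.603, but only 5 of the 16 were called in all 6 fits that left out 1 library. FOXA3, a forkhead factor, had 30.1 and 38.6 FPKM in Huh7 and 1.71 and 2.09 FPKM in 97H (3.60 ± 0.47, adjusted p = 0.000389). NR0B2, the bile acid responsive repressor SHP, had 11.5 and 10.7 FPKM in Huh7 and 0.0364 and 0.0339 FPKM in 97H (3.55 ± 0.43, adjusted p = 0.000252).

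HNF4A and CEBPA, central factors of this network named after their values were seen, were still expressed in 97H. HNF4A had 47.1 and 56.4 FPKM in Huh7 and 18.2 and 9.26 FPKM in 97H (1.91 ± 0.41, adjusted p = 0.00682), and this call was lost without the Huh7 control (1.604, adjusted p = 0.289), without the Huh7 CDK4/6 inhibitor library (2.21, adjusted p = 0.0595) and without the 97H control (1.34, adjusted p = 0.0551). CEBPA had 147 and 216 FPKM in Huh7 and 22.7 and 45.5 FPKM in 97H (2.43 ± 0.35, adjusted p = 0.000621). CEBPB, a factor of the acute phase response, was the 1 lower member, with 42.7 and 34.9 FPKM in Huh7 and 143 and 143 FPKM in 97H (-1.86 ± 0.35, adjusted p = 0.00327). That call was lost without the Huh7 control (-1.56, adjusted p = 0.165).

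Fetal liver and stem cell genes were divided between the lines, with more of them high in Huh7. Of 23 tested, 13 were higher and 3 lower, with a median of 1.98, and 11 and 3 of these calls held in all 6 fits that left out 1 library. AFP, alpha-fetoprotein, had 1641 and 2344 FPKM in Huh7, against 3.78 and 3.77 FPKM in 97H (8.68 ± 0.51, adjusted p = 5.16e-06). GPC3, a cell surface proteoglycan used as a liver cancer marker, had 281 and 192 FPKM in Huh7 and 0.302 and 0.244 FPKM in 97H (7.52 ± 0.43, adjusted p = 4.62e-06). IGF2, a fetal growth factor, had 395 and 169 FPKM in Huh7 and 0.427 and 0.312 FPKM in 97H. The 3 lower genes were CD44, a hyaluronan receptor, SOX2, a pluripotency factor, and HMGA1, a chromatin protein. CD44 had 1.13 and 1.10 FPKM in Huh7 and 48.9 and 44.6 FPKM in 97H (-4.50 ± 0.42, adjusted p = 5.73e-05), and SOX2 was at 0.0384 and 0 FPKM in Huh7 and at 8.67 and 15.9 FPKM in 97H (-3.65 ± 0.38, adjusted p = 0.000105).

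Imprinted genes, which are expressed from 1 parental copy, also went both ways, with 7 of 16 tested higher and 4 lower in Huh7, of which 4 and 2 held in all 6 fits that left out 1 library. PEG10, a gene derived from a retrotransposon, had 135 and 92.2 FPKM in Huh7 and 1.33 and 1.42 FPKM in 97H (5.57 ± 0.49, adjusted p = 4.04e-05). SNURF, which shares a transcript with SNRPN, had 0.538 and 0.298 FPKM in Huh7 and 56.9 and 50.8 FPKM in 97H (-5.28 ± 0.37, adjusted p = 1.13e-05).

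Epithelial junction genes were mostly higher in Huh7: 19 of 35 tested were higher and 4 lower, with a median of 1.40, and 10 and 0 of these held in all 6 fits that left out 1 library. CLDN6, a tight junction protein of fetal epithelia, had 236 and 167 FPKM in Huh7 and 0.116 and 0.445 FPKM in 97H (7.30 ± 0.45, adjusted p = 6.25e-06). CLDN1, another claudin, had 271 and 278 FPKM in Huh7 and 5.07 and 2.03 FPKM in 97H (6.01 ± 0.37, adjusted p = 6.25e-06). EPCAM, an epithelial adhesion protein, had 42.6 and 30.1 FPKM in Huh7 and 0.168 and 0.0397 FPKM in 97H (5.06 ± 0.43, adjusted p = 3.4e-05). CDH1, E-cadherin, named after its values were seen, had 37.0 and 15.8 FPKM in Huh7 and 1.68 and 1.05 FPKM in 97H (3.43 ± 0.49, adjusted p = 0.000619). Among the lower genes was CLDN2, with 10.7 and 5.86 FPKM in Huh7 and 54.6 and 64.3 FPKM in 97H (-2.75 ± 0.45, adjusted p = 0.00141). Its call was lost without the Huh7 control (-2.43, adjusted p = 0.168) and without the Huh7 CDK4/6 inhibitor library (-3.08, adjusted p = 0.0533).

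Genes usually read as mesenchymal did not follow 1 line. Of 53 tested, 23 were higher and 22 lower in Huh7, with a median of -0.25 that turned to 0.09 without the 97H control, and 12 and 19 of these calls held in all 6 fits that left out 1 library. VIM, the intermediate filament vimentin, had 649.7 and 534 FPKM in Huh7 and 4.05 and 3.55 FPKM in 97H (6.94 ± 0.44, adjusted p = 7e-06). CNN1, a smooth muscle calponin, had 79.1 and 50 FPKM in Huh7 and 0.0793 and 0.128 FPKM in 97H (5.86 ± 0.43, adjusted p = 1.48e-05). The opposite held for MSN, moesin, which ties actin to the membrane, with 0.714 and 0.677 FPKM in Huh7 and 326 and 274 FPKM in 97H (-7.47 ± 0.36, adjusted p = 2.5e-06). CAV1, the coat protein of caveolae, had 16.5 and 10.8 FPKM in Huh7 and 1225 and 1687 FPKM in 97H (-6.64 ± 0.40, adjusted p = 5.34e-06). COL6A2, a collagen VI chain, and LGALS1, galectin-1, were also lower in Huh7, by -6.02 ± 0.46 and -6.00 ± 0.64. The fibrillar collagen gene COL1A2 was higher, with 77.8 and 16.2 FPKM in Huh7 and 0.0831 and 0.0993 FPKM in 97H (5.08 ± 0.56, adjusted p = 0.000146).

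Among 11 tested integrin subunits, the adhesion receptors for matrix, 2 were higher and 3 lower in Huh7, of which 0 and 2 held in all 6 fits that left out 1 library. ITGA3, which pairs with ITGB1 on laminin, had 4.26 and 2.399 FPKM in Huh7 and 166 and 96.8 FPKM in 97H (-4.92 ± 0.44, adjusted p = 4.04e-05), and ITGB4, of hemidesmosomes, had 0.224 and 0.253 FPKM in Huh7 and 28.5 and 12.5 FPKM in 97H (-4.01 ± 0.45, adjusted p = 0.000151).

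**Figure D3:**
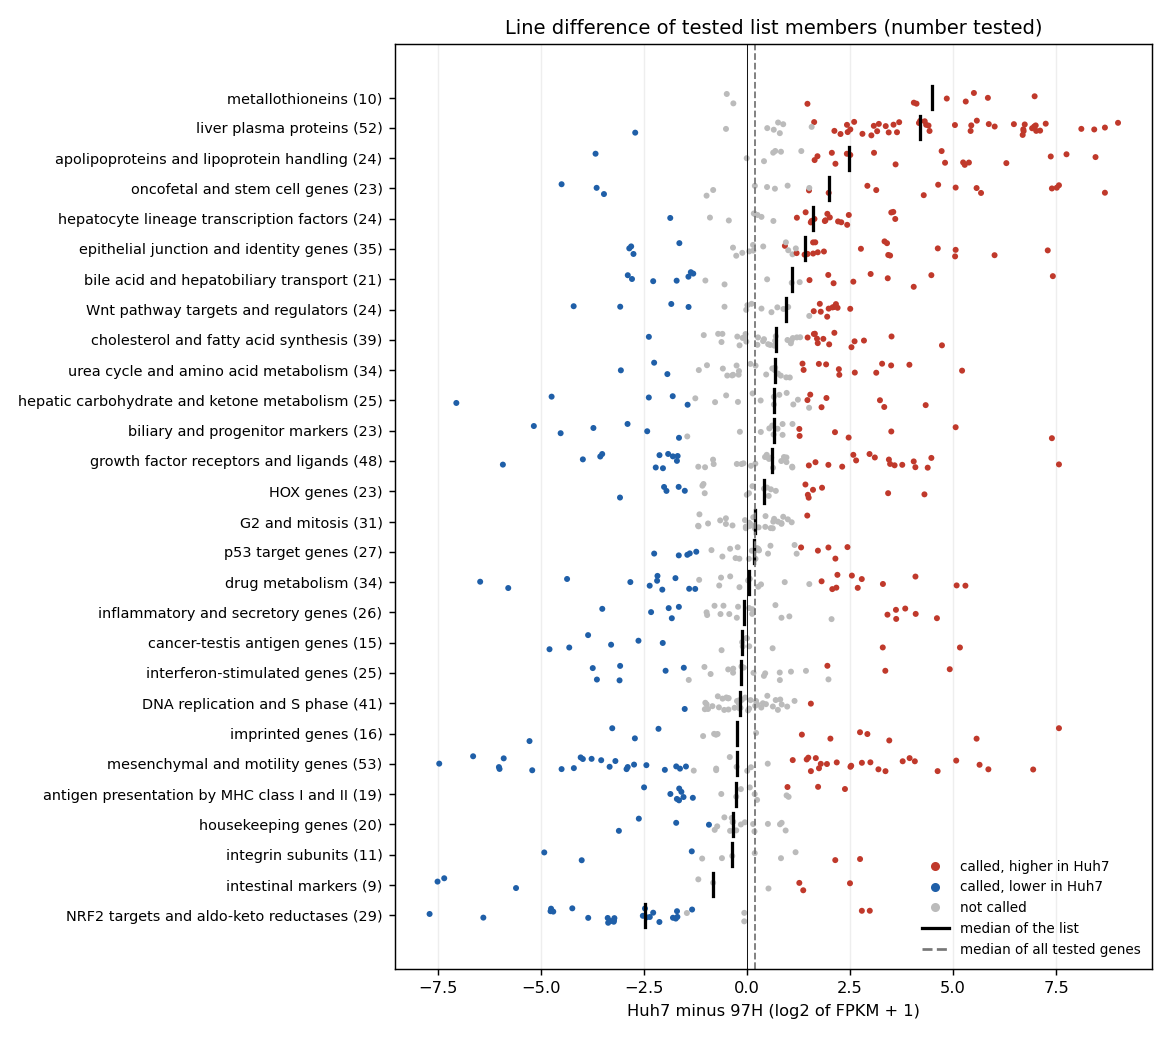
Huh7 minus 97H difference of the tested members of the 28 gene lists with at least 9 tested genes other than the target genes, each point 1 gene, on the log2(FPKM + 1) scale, with the median of each list and the median of all tested genes (0.19). Metallothioneins and plasma proteins have the highest medians, 4.48 and 4.19, and the NRF2 list the lowest, -2.47.

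The NRF2 list, made of known NRF2 targets, aldo-keto reductases and the NRF2 and KEAP1 genes themselves, had the largest share of members lower in Huh7, 82.8%, among lists with at least 9 tested genes. Of 29 tested, 24 were lower and 2 higher, with a median of -2.47, which was -2.71 with median ratio scaling and -2.58 with quantile normalization, and 16 and 2 of these calls held in all 6 fits that left out 1 library. AKR1B10, which reduces retinal and other carbonyls, had 8.92 and 4.19 FPKM in Huh7 and 1201 and 1848 FPKM in 97H (-7.70 ± 0.44, adjusted p = 4.84e-06). AKR1C3, a steroid and prostaglandin reductase, had 1.029 and 1.47 FPKM in Huh7 and 149 and 235 FPKM in 97H (-6.40 ± 0.45, adjusted p = 1.18e-05). The AKR1B and AKR1C genes have close copies, so their separate levels are uncertain.

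The genes whose promoters are shown above had smaller differences of the same sign. GPX2, a glutathione peroxidase, had 36.4 and 93.5 FPKM in Huh7 and 652 and 466 FPKM in 97H (-3.22 ± 0.45, adjusted p = 0.000531), and CBR1, a carbonyl reductase, had 12.4 and 14.96 FPKM in Huh7 and 158 and 117 FPKM in 97H (-3.23 ± 0.36, adjusted p = 0.000142). TXNRD1, thioredoxin reductase, had 70.0 and 79.9 FPKM in Huh7 and 283 and 624 FPKM in 97H (-2.47 ± 0.68, adjusted p = 0.0242), a call lost without the 97H control (-1.31, adjusted p = 0.203). NQO1, the quinone reductase often used as the readout of NRF2, had 40.96 and 72.0 FPKM in Huh7 and 501 and 596 FPKM in 97H (-3.31 ± 0.40, adjusted p = 0.000238).

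The 2 members higher in Huh7 were the regulators. KEAP1, the adaptor that sends NRF2 for degradation, had 36.1 and 45.6 FPKM in Huh7 and 4.70 and 3.88 FPKM in 97H (2.98 ± 0.39, adjusted p = 0.000406). NFE2L2, which encodes NRF2, had 65.1 and 63.2 FPKM in Huh7 and 7.003 and 10.1 FPKM in 97H (2.79 ± 0.45, adjusted p = 0.00126). The libraries of the 2 lines did not overlap for either gene. FTL, the ferritin light chain, was the most abundant gene of the table in both lines, with 5211 and 6665 FPKM in Huh7 and 20680 and 17666 FPKM in 97H (-1.70 ± 0.28, adjusted p = 0.00155). That difference was 0.00 with quantile normalization, which gives the top rank 1 value in every library, and its call was lost without the Huh7 control (-1.78, adjusted p = 0.142) and without the Huh7 CDK4/6 inhibitor library (-1.62, adjusted p = 0.269).

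Metallothioneins, small proteins that bind zinc and copper, stood at the other end. Of 10 tested genes of that list, 8 were higher in Huh7 and none lower, with a median of 4.48, and 7 of the 8 held in all 6 fits that left out 1 library. MT1G had 183 and 179 FPKM in Huh7 and 1.08 and 0 FPKM in 97H (6.98 ± 0.52, adjusted p = 1.48e-05), and MT1X had 246 and 221 FPKM in Huh7 and 5.73 and 1.46 FPKM in 97H (5.84 ± 0.44, adjusted p = 1.75e-05). MT2A, the most abundant of them, had 428 and 603 FPKM in Huh7 and 42.5 and 20.8 FPKM in 97H (4.05 ± 0.44, adjusted p = 0.000121). The 2 members that were not called are not metallothioneins: SLC30A1, a zinc exporter, had 12.95 and 9.24 FPKM in Huh7 and 12.5 and 19.9 FPKM in 97H, and MTF1, the zinc-sensing factor of these genes, had 1.90 and 1.61 FPKM in Huh7 and 2.01 and 2.98 FPKM in 97H. The MT1 genes are close copies of each other on chromosome 16, so how reads were divided among them is uncertain.

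**Figure D4:**
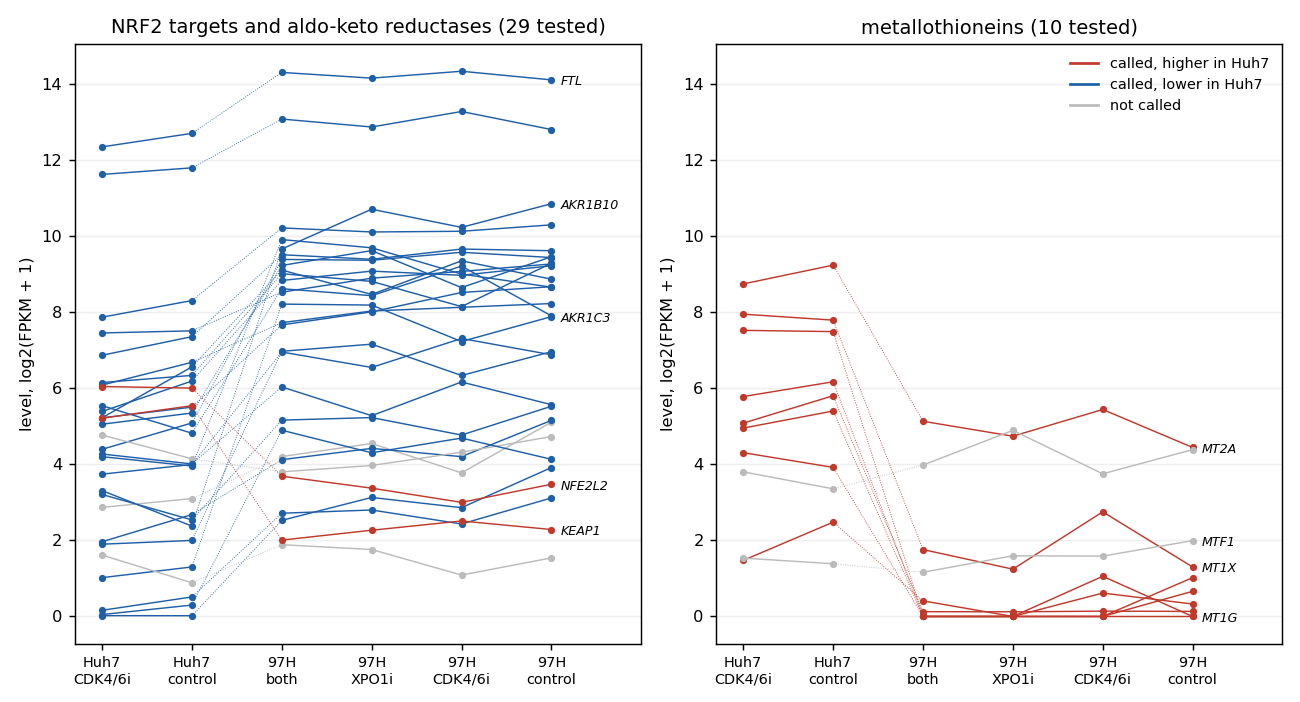
Level of each tested gene of the NRF2 list (left) and the metallothionein list (right) on the log2(FPKM + 1) scale in the Huh7 and 97H libraries; CDK4/6i and XPO1i are the inhibitors and both is their combination. The step between the lines is larger than the changes among the 4 libraries of 97H for most genes, and KEAP1 and NFE2L2 lie higher in Huh7 while the other called genes of their list lie lower.

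Drug metabolism genes were split, with 11 of 34 tested higher and 11 lower in Huh7 and a median of 0.045, which turned to -0.16 with median ratio scaling, -0.35 with quantile normalization and -0.27 with GC content and length trends removed. Of these calls 8 and 4 held in all 6 fits that left out 1 library. GSTP1, a glutathione transferase, had 2536 and 2402 FPKM in Huh7 and 174 and 120 FPKM in 97H (4.09 ± 0.35, adjusted p = 3.46e-05), and SULT2A1, which sulfates steroids and bile acids, had 39.7 and 30.3 FPKM in Huh7 and 0.0264 and 0.0744 FPKM in 97H (5.09 ± 0.64, adjusted p = 0.000312). CES1, a liver carboxylesterase, had 9.68 and 4.96 FPKM in Huh7 and 539.6 and 359.5 FPKM in 97H (-5.79 ± 0.40, adjusted p = 1.11e-05), and ALDH3A1, an aldehyde dehydrogenase, had 0.265 and 0.432 FPKM in Huh7 and 153 and 91.9 FPKM in 97H (-6.47 ± 0.45, adjusted p = 1.13e-05).

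In bile acid handling, 9 of 21 tested genes were higher and 7 lower, of which 6 and 0 held in all 6 fits that left out 1 library. FABP1, the liver fatty acid binding protein, had 177 and 213 FPKM in Huh7 and 0.193 and 0.0892 FPKM in 97H (7.42 ± 0.47, adjusted p = 7e-06). KLB, the co-receptor for FGF19, and FGF19 itself, the hormone that restrains bile acid synthesis, were both higher in Huh7. FGF19 had 16.3 and 15.7 FPKM in Huh7 and 0.0610 and 0 FPKM in 97H (4.05 ± 0.36, adjusted p = 4.08e-05), and KLB had 31.4 and 20.7 FPKM in Huh7 and 0.193 and 0.193 FPKM in 97H (4.47 ± 0.55, adjusted p = 0.000267). None of the 7 lower calls, among them the export pumps ABCC2, ABCC3 and ABCG2, held in all 6 fits that left out 1 library. ABCC2 had 8.24 and 4.81 FPKM in Huh7 and 26.3 and 45.1 FPKM in 97H (-2.28 ± 0.53, adjusted p = 0.0102), and was not called without the Huh7 control (-2.12, adjusted p = 0.13), the Huh7 CDK4/6 inhibitor library (-2.43, adjusted p = 0.07) or the 97H control (-1.36, adjusted p = 0.16).

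In carbohydrate metabolism, 7 of 25 tested genes were higher and 5 lower, and 2 of each held in all 6 fits that left out 1 library. LDHB, the lactate dehydrogenase of oxidative tissues, had 0.700 and 0.356 FPKM in Huh7 and 142 and 282 FPKM in 97H (-7.05 ± 0.49, adjusted p = 1.13e-05). HK1 had 0.865 and 0.609 FPKM in Huh7 and 43.5 and 47.2 FPKM in 97H (-4.74 ± 0.42, adjusted p = 4.04e-05), while HK2, another hexokinase, had 11.2 and 8.68 FPKM in Huh7 and 0.0796 and 0.0820 FPKM in 97H (3.33 ± 0.36, adjusted p = 0.00013). Both hexokinases start glycolysis by phosphorylating glucose.

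Of 34 tested genes of the urea cycle and amino acid metabolism, 12 were higher and 3 lower in Huh7, of which 7 and 1 held in all 6 fits that left out 1 library. GLDC, of the glycine cleavage system, had 42.3 and 37.7 FPKM in Huh7 and 0.128 and 0.0717 FPKM in 97H (5.22 ± 0.43, adjusted p = 2.56e-05). KYNU, which degrades kynurenine, was lower, with 0.218 and 0.539 FPKM in Huh7 and 7.60 and 14.1 FPKM in 97H (-3.06 ± 0.38, adjusted p = 0.000284). Cholesterol and fatty acid synthesis genes had 13 of 39 higher and 1 lower, of which 6 and 0 held in all 6 fits that left out 1 library. HMGCS1, an early enzyme of cholesterol synthesis, had 90.8 and 75.1 FPKM in Huh7 and 1.69 and 2.68 FPKM in 97H (4.73 ± 0.54, adjusted p = 0.000172), and FADS2, a fatty acid desaturase, had 471 and 463 FPKM in Huh7 and 102 and 40.7 FPKM in 97H (2.84 ± 0.48, adjusted p = 0.00182).

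Receptors and ligands for growth factors were divided, with 17 of 48 tested higher and 11 lower in Huh7, of which 13 and 5 held in all 6 fits that left out 1 library. MET, the receptor of hepatocyte growth factor, had 4.19 and 6.33 FPKM in Huh7 and 233 and 596 FPKM in 97H (-5.92 ± 0.62, adjusted p = 0.000108). AXL, another receptor tyrosine kinase, had 0.568 and 0.201 FPKM in Huh7 and 19.95 and 21.4 FPKM in 97H (-3.98 ± 0.45, adjusted p = 0.000167). The binding proteins of insulin-like growth factors did not move together: IGFBP3 had 69.1 and 30.1 FPKM in Huh7 and 2.22 and 1.35 FPKM in 97H (4.09 ± 0.50, adjusted p = 0.000267), and IGFBP4 had 17.5 and 15.9 FPKM in Huh7 and 235 and 183.5 FPKM in 97H (-3.56 ± 0.40, adjusted p = 0.000163).

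In the Wnt pathway, 10 of 24 tested genes were higher and 4 lower, and 3 and 1 of these held in all 6 fits that left out 1 library. WNT7B, a ligand, had 0.0771 and 0.0433 FPKM in Huh7 and 18.8 and 18.3 FPKM in 97H (-4.20 ± 0.40, adjusted p = 5.84e-05). SP5, a Wnt target and repressor, had 4.70 and 6.18 FPKM in Huh7 and 0.215 and 0.0448 FPKM in 97H (2.51 ± 0.40, adjusted p = 0.00116). AXIN2, a target that feeds back on the pathway, went the other way, with 1.11 and 1.06 FPKM in Huh7 and 16.7 and 16.5 FPKM in 97H (-3.08 ± 0.42, adjusted p = 0.000483), and its call was lost without the Huh7 CDK4/6 inhibitor library (-3.002, adjusted p = 0.0611).

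HOX genes, which mark position along the body, were called in both directions. HOXC10 had 24.95 and 22.0 FPKM in Huh7 and 0.335 and 0.143 FPKM in 97H (4.31 ± 0.45, adjusted p = 0.000102), and HOXC13 had 11.1 and 9.04 FPKM in Huh7 and 0.0505 and 0 FPKM in 97H (3.42 ± 0.43, adjusted p = 0.000284). HOXB7 had 1.13 and 1.026 FPKM in Huh7 and 17.0 and 16.1 FPKM in 97H (-3.08 ± 0.40, adjusted p = 0.000367), and HOXA2 had 0 and 0.0782 FPKM in Huh7 and 2.33 and 4.26 FPKM in 97H (-2.01 ± 0.32, adjusted p = 0.0012). Of the 23 tested HOX genes, 7 were higher and 5 lower, of which 2 and 3 held in all 6 fits that left out 1 library.

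Markers of other cell types were high in single cases in both lines. In 97H, 3 of 9 tested intestinal markers were far above Huh7, calls that held in all 6 fits that left out 1 library. CEACAM6, an adhesion protein of gut epithelium, had 0.367 and 0.253 FPKM in Huh7 and 293 and 191.5 FPKM in 97H (-7.51 ± 0.44, adjusted p = 5e-06). KRT20, an intestinal keratin, had 0.383 and 0.409 FPKM in Huh7 and 179.5 and 284 FPKM in 97H (-7.34 ± 0.55, adjusted p = 1.52e-05), and LGALS4, an intestinal galectin, had 0.265 and 0.236 FPKM in Huh7 and 83.8 and 42.5 FPKM in 97H. The other 3 called members were higher in Huh7, none in all 6 fits, among them VIL1, villin, with 162 and 162 FPKM in Huh7 and 26.4 and 29.4 FPKM in 97H (2.50 ± 0.45, adjusted p = 0.00239). That call was lost without the Huh7 control (2.17, adjusted p = 0.0669). The summed level of the 16 listed intestinal genes was 247 and 201 FPKM in Huh7 and 678 and 604 FPKM in 97H, and 5 were listed at 0 in each line.

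Biliary and progenitor markers gave 7 of 23 tested higher and 6 lower, of which 3 and 3 held in all 6 fits that left out 1 library. SPP1, osteopontin, had 6.74 and 2.78 FPKM in Huh7 and 116 and 131 FPKM in 97H (-4.52 ± 0.46, adjusted p = 8.95e-05), and MMP7, a matrix protease, was at 0.0966 and 0 FPKM in Huh7 and at 26.2 and 51.3 FPKM in 97H (-5.17 ± 0.45, adjusted p = 3.5e-05). CD24, a surface marker of progenitors, had 490.0 and 332 FPKM in Huh7 and 1.79 and 1.06 FPKM in 97H (7.40 ± 0.38, adjusted p = 2.73e-06). Few markers of blood and vessel cells passed the filter: 4 of 16 leukocyte and 2 of 10 endothelial genes. Of these 4 leukocyte genes 2 were higher and 2 lower in Huh7, and both endothelial genes, ESAM and PECAM1, were lower. The PECAM1 call did not hold in all 6 fits that left out 1 library. Its difference was -1.04 without the Huh7 control, -1.40 without the Huh7 CDK4/6 inhibitor library and -0.98 without the 97H control. LYZ, lysozyme, had 138 and 105 FPKM in Huh7 and 0.0987 and 0.426 FPKM in 97H. CD68, of the same list, went the other way, with 8.55 and 2.77 FPKM in Huh7 and 65.9 and 48.5 FPKM in 97H (-3.26 ± 0.41, adjusted p = 0.000288). ESAM, an endothelial adhesion protein, had 1.798 and 0.821 FPKM in Huh7 and 54.1 and 38.8 FPKM in 97H. Of the leukocyte list, 5 were at 0 in both Huh7 libraries and 8 in both 97H libraries, and of the endothelial list 5 and 4. Stellate cell and fibroblast markers had 5 of 14 past the filter, all higher in Huh7, and 3 of those calls held in all 6 fits that left out 1 library. Every tested gene of the leukocyte, endothelial and stellate lists was called. A gene that passed the filter mainly through the line where it is high was bound to differ. These counts thus follow at least in part from the filter, and how far was not tested. The libraries are of cell lines, and whether other cells contribute to any of these levels was not tested.

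Cancer-testis genes, silent in most adult tissues, gave 2 of 15 tested higher and 6 lower in Huh7, all of which held in all 6 fits that left out 1 library. MAGEB2 had 37.1 and 42.7 FPKM in Huh7 and 0.107 and 0.167 FPKM in 97H (5.17 ± 0.44, adjusted p = 3.18e-05), and PRAME had 12.04 and 6.98 FPKM in Huh7 and 0.0487 and 0.0305 FPKM in 97H (3.29 ± 0.44, adjusted p = 0.000402). MAGEA3 and SPANXB1 were lower, with 0.131 and 0.0613 FPKM in Huh7 and 19.9 and 21.6 FPKM in 97H for MAGEA3 (-4.31 ± 0.42, adjusted p = 6.54e-05). These families hold near-identical copies, so the gene a read came from is uncertain.

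Interferon-stimulated genes gave 3 of 25 tested higher and 6 lower, of which 2 and 4 held in all 6 fits that left out 1 library. OAS1, an antiviral synthetase, had 1.04 and 0.885 FPKM in Huh7 and 28.95 and 18.99 FPKM in 97H (-3.64 ± 0.44, adjusted p = 0.000246). Of 19 genes of antigen presentation, 3 were higher and 8 lower, with 1 and 1 of these calls held in all 6 fits that left out 1 library. CD74, the class II invariant chain, had 7.52 and 4.10 FPKM in Huh7 and 0.516 and 0.0618 FPKM in 97H (2.38 ± 0.35, adjusted p = 0.000714). Among secreted inflammatory genes, CCL20, a chemokine, had 18.6 and 90.4 FPKM in Huh7 and 0.677 and 0.792 FPKM in 97H (4.61 ± 0.58, adjusted p = 0.000316), and LIF, a cytokine, had 0.102 and 0.0676 FPKM in Huh7 and 14.1 and 9.09 FPKM in 97H (-3.51 ± 0.37, adjusted p = 0.000102).

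Genes of cell division held few calls. Of 41 tested replication genes 1 was higher and 1 lower, and of 31 mitotic genes 1 was higher and none lower, shares of 4.88% and 3.23% called against 24.2% of all tested genes. The medians were -0.16 and 0.19. They join unlike pairs: the replication median was -0.46 in the CDK4/6 inhibitor pair and 0.29 in the control pair, and the mitotic median was 0.06 in the inhibitor pair and 0.50 in the control pair. The mitotic median turned to -0.05 with median ratio scaling and to -0.43 without the Huh7 control, and the replication median to 0.28 without the Huh7 CDK4/6 inhibitor library and to 0.10 without the 97H CDK4/6 inhibitor library. None of these 3 calls held in all 6 fits that left out 1 library, but without the PLC control 7 replication genes were called higher and 6 lower, and 8 mitotic genes higher and 4 lower. Their summed levels were lower with the CDK4/6 inhibitor than without it in both lines, which was not tested. For replication the sum was 769.7 and 1841 FPKM in Huh7 and 1080 and 1396 FPKM in 97H, and for mitosis it was 501 and 1385 FPKM in Huh7 and 763 and 1096 FPKM in 97H.

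Of 22 tested genes around the drug targets, 5 were higher and 3 lower, and only CCND3 held in all 6 fits that left out 1 library. CCND3, cyclin D3, had 6.65 and 6.81 FPKM in Huh7 and 151 and 80.1 FPKM in 97H (-3.84 ± 0.38, adjusted p = 7.82e-05). CCND1, cyclin D1, had 257 and 121 FPKM in Huh7 and 79.9 and 64.8 FPKM in 97H (1.28 ± 0.40, adjusted p = 0.041), and was not called without either Huh7 library (1.28 and 1.29, adjusted p = 0.343 and 0.332) or without the 97H CDK4/6 inhibitor library (0.69, adjusted p = 0.358). RB1, the pocket protein that CDK4 and CDK6 phosphorylate, had 3.11 and 5.30 FPKM in Huh7 and 0.196 and 0.281 FPKM in 97H (2.04 ± 0.47, adjusted p = 0.00944). Its call was lost without the Huh7 control (1.47, adjusted p = 0.197), the 97H control (2.22, adjusted p = 0.054) and the 97H CDK4/6 inhibitor library (1.86, adjusted p = 0.12). The kinase gene CDK4 had 78.7 and 160 FPKM in Huh7 and 225 and 209 FPKM in 97H and was not called (-0.94 ± 0.36, adjusted p = 0.0863). It was called without either PLC library (-0.94 both times, adjusted p = 0.00443 and 0.00464) and without the 97H control (-1.48, adjusted p = 0.0144). CDK6, the other kinase, had 0.836 and 0.766 FPKM in Huh7 and 1.10 and 2.16 FPKM in 97H (-0.52 ± 0.52, adjusted p = 0.515), and was called without the PLC CDK4/6 inhibitor library (-0.52, adjusted p = 0.0441). XPO1, the export receptor, was not called at 0.55 ± 0.59 (adjusted p = 0.545) and turned to -0.15 without the 97H CDK4/6 inhibitor library. Of 27 tested p53 target genes, 5 were higher and 5 lower, and none of these calls held in all 6 fits.

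Housekeeping genes give a scale for this comparison. Of 20 tested, none was higher and 4 were lower in Huh7, with a median of -0.34, which stayed below 0 under both other scalings. HPRT1, of purine salvage, and PGK1, of glycolysis, both on the X chromosome, were the members whose call held in all 6 fits that left out 1 library, at -3.11 ± 0.41 and -2.62 ± 0.29. PGK1 had 77.3 and 103 FPKM in Huh7 and 539 and 571 FPKM in 97H.

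Some genes were on in 1 line and close to absent in the other. With at most 0.1 FPKM in both libraries of 1 line and at least 5 FPKM in both of the other, 89 genes were near 0 in 97H and 50 near 0 in Huh7. Of these, 71 and 42 kept this pattern when the XPO1 inhibitor and combination libraries of 97H were added. GC, the vitamin D binding protein, led those near 0 in 97H, with 51.8 and 65.2 FPKM in Huh7 and 0.0266 and 0 FPKM in 97H. MFAP2, a microfibril protein, had 53.9 and 29.4 FPKM in Huh7 and 0.0535 and 0.0504 FPKM in 97H. Near 0 in Huh7 were NR0B1, the nuclear receptor DAX1, with 0.0360 and 0.0702 FPKM in Huh7 and 53.3 and 56.5 FPKM in 97H, and EFNB1, an ephrin ligand, with 0.0244 and 0.0238 FPKM in Huh7 and 43.6 and 37.96 FPKM in 97H.

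Differences were also grouped along the chromosomes. Chromosome 13 had the highest median, 1.04 over 148 tested genes, with 46 higher and 5 lower in Huh7, and X the lowest, -0.50 over 358 genes, with 65 higher and 103 lower. With GC content and length trends removed these medians were 0.81 and -0.64. Medians were next taken over runs of 41 neighbouring tested genes, whose 5th and 95th percentiles over 9527 overlapping runs were -0.74 and 0.96. The highest run lay at chr11:66268639-67506266, with a median of 1.85 and 31 of 41 genes higher and 3 lower. It holds CTSF, a lysosomal protease, with 96.6 and 27.1 FPKM in Huh7 and 0.465 and 0.328 FPKM in 97H (5.23 ± 0.52, adjusted p = 7.76e-05), and PITPNM1, a lipid transfer protein, with 110 and 80.8 FPKM in Huh7 and 5.98 and 3.22 FPKM in 97H (4.14 ± 0.38, adjusted p = 5.29e-05).

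The next high runs lay at chrX:2691295-20267097, with a median of 1.47, and at chr8:33485182-47738164, with a median of 1.40 and 22 genes higher and none lower. The chromosome 8 run holds FGFR1, a fibroblast growth factor receptor, with 7.17 and 9.26 FPKM in Huh7 and 0.1003 and 0.0334 FPKM in 97H (3.10 ± 0.42, adjusted p = 0.000481). The lowest run lay at chrX:136869192-153798499, with a median of -1.55 and 23 genes lower and 4 higher, and holds the SPANX and MAGEA genes. The next lay at chrX:49922596-71073426, with a median of -1.42, and holds MSN and EFNB1. Another lay at chr17:78356778-81891587, with a median of -1.21 and 20 genes lower and 1 higher. It holds LGALS3BP, a secreted glycoprotein, with 34.8 and 8.99 FPKM in Huh7 and 312 and 203 FPKM in 97H (-3.74 ± 0.46, adjusted p = 0.000275). With runs of 21 genes the highest median was 2.47, on chromosome 14 and not 11, and with runs of 81 genes the highest was 1.55, on chromosome 11. The copy number of these regions was not measured. Coordinates are RefSeq gene positions on GRCh38.p14.

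**Figure D5:**
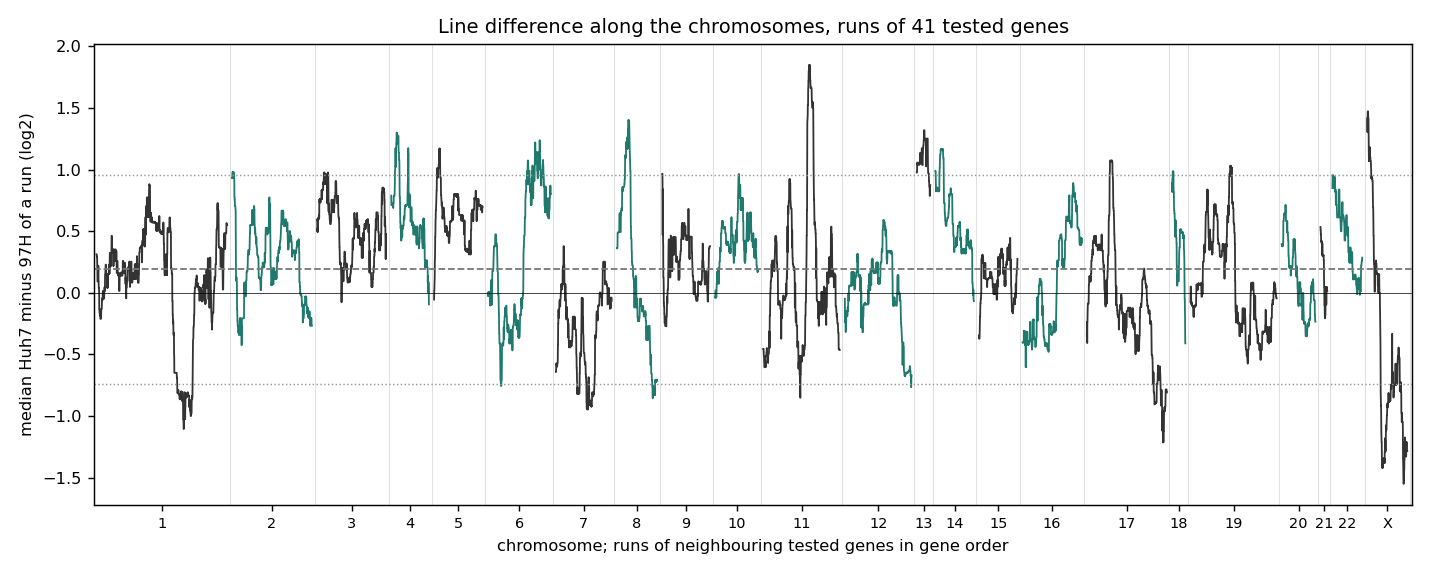
Median Huh7 minus 97H difference (log2) of runs of 41 neighbouring tested genes, in gene order along each chromosome, with the median of all tested genes (0.19, dashed) and the 5th and 95th percentiles of all runs (-0.74 and 0.96, dotted). Runs on chromosome 11 reach 1.85 and runs on X span 1.47 to -1.55.

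The 97H libraries with the XPO1 inhibitor, which entered no call, were set beside the same Huh7 libraries. Over all tested genes, 67.8% did not overlap between the 2 Huh7 and the 2 97H libraries, and 85.8% of these still did not overlap when the XPO1 inhibitor and the combination libraries of 97H were added. Among the called genes, which were selected for such a separation, 2529 of 2532 did not overlap, and 2461 (97.3% of those 2529) still did not with the added libraries. ALB then had 15.9 FPKM with the combination and 5.11 FPKM with the XPO1 inhibitor, AKR1B10 had 809.0 and 1672 FPKM and KEAP1 had 3.02 and 3.82 FPKM. Of the genes called higher in Huh7, 50.6% had a PLC mean nearer Huh7 and 49.4% nearer 97H. Of those called lower, 63.7% had a PLC mean nearer Huh7 and 36.3% nearer 97H. The same shares over all tested genes were not taken, so these say nothing particular of the called genes. PLC resembled Huh7 for APOE, with 1070 and 1135 FPKM in its CDK4/6 inhibitor and control libraries, and for AKR1B10, with 1.02 and 1.56 FPKM, and it resembled 97H for VIM, with 9.88 and 2.64 FPKM, and for MSN, with 162 and 96.5 FPKM.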

How the data were processed

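Gene expression was measured by RNA-seq in 10 libraries of 3 liver cancer lines. RNA was taken with Trizol and libraries were made with a TruSeq RNA kit, per the labels' protocols. Per the submitters' processing notes, the tools were CASAVA 1.8.2, STAR 2.4.2g1 and featureCounts of Subread, with GRCh38. How FPKM was made from counts is not given in the sources used here. Values for 20030 entries were used as deposited, in FPKM. Symbols turned into dates were restored for 27 entries from their gene IDs. Depth is unknown; from the low values the 10 libraries lay between 0.766 and 1 of the Huh7 control.

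Tests used limma (version 3.58.1, R 4.3.3), with a variance trend in eBayes and two-sided p, on log2(FPKM + 1), with line and treatment as terms, 2 residual degrees of freedom and Benjamini-Hochberg adjustment over 10480 genes. The pseudocount of 1 shrinks differences of genes at low FPKM. The fit was also run on simulated data with independent normal noise drawn from its own variances. Those data hold no differing drug responses of the lines, so they cannot check the p-values given here. The members, the 34 gene lists and the tests were chosen with earlier results of these data known. The rule for named genes takes the 15 largest called differences in each direction, up to 4 called members of a list in each direction, the target genes, 5 genes near 0 in each line, 5 with opposite pairs, and leading genes of 3 runs in each direction; entries with no symbol and Y-linked genes were left out. Genes named outside it were chosen after their values were seen: FGA, ITGB1, HNF4A, CEBPA, CDH1, NQO1, GPX2, CBR1, TXNRD1, FTL, MT2A, SLC30A1 and MTF1. RefSeq positions on GRCh38.p14 matched 98.6% of entries. GC content and length of transcripts came from GENCODE on GRCh38. The alternatives changed the pseudocount, filter, libraries, treatment term, prior, scaling, GC content and length, near-0 limits and run length. Some genes that the rule takes are not reported here.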

Additional observations from a re-analysis of the deposited data

Results flagged for a closer look

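In 5 genes the Huh7 minus 97H difference was at least 1 on the log2 scale in both treatment pairs but with opposite signs. Each pair is 1 library against 1 library, so the difference between the pairs was not tested, and the combined difference of none of the 5 was called. HIST1H1C, a linker histone gene, had 99.6 FPKM in Huh7 and 348 FPKM in 97H with the CDK4/6 inhibitor, and 388 FPKM in Huh7 and 81.9 FPKM in 97H without it, so the control pair difference exceeded the other by 4.02. HIST1H2AE, a core histone gene, had 1.88 FPKM in Huh7 and 8.30 FPKM in 97H with the inhibitor, and 13.3 FPKM in Huh7 and 1.63 FPKM in 97H without it, a gap of 4.14. For HIST1H2AD and HIST1H2AM, also core histone genes, the gaps were 3.04 and 2.71. Histone genes have near-identical copies, so their levels are uncertain. IL1R1, the interleukin-1 receptor, went the other way, with 12.4 FPKM in Huh7 and 5.52 FPKM in 97H with the inhibitor and 4.45 FPKM in Huh7 and 11.1 FPKM in 97H without it, a gap of -2.18.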

How the results depend on the processing

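No paired analysis by replicate number was possible because the labels give no replicate numbers; treatment paired the libraries in the model, and without that term 2479 genes were called. Against 2532 calls (1523 higher, 1009 lower in Huh7), counts moved by over 1.5 times with a filter of 5 FPKM (1682 called, 972 higher, of 6639 tested, so fewer genes were tested), with the 4 Huh7 and 97H libraries only (5389 called, 3327 higher, 2062 lower), with GC content and length trends removed (4199 called, 2425 higher, 1774 lower) and, for genes lower in Huh7, with all 10 libraries (1544). Leaving out 1 library gave 1066 to 5378 calls, 679 to 3316 higher and 366 to 2062 lower. Every fit that left out 1 library, and the fit with 4 libraries, rests on 1 residual degree of freedom. Leaving out 1 library of a line leaves a lone library assumed to vary like the others. With 4 libraries, or without a Huh7 or a PLC library, the prior degrees of freedom were infinite. The variance of each gene then came wholly from the trend over all genes. In every one of these fits each gene named in the text as called kept its direction, except FTL, which went to 0.00 with quantile normalization. Of 252 called genes followed, 172 were called in all 6 fits that left out 1 library. Among genes not called, leaving out 1 library gave -1.26 to 0.23 for CDK6, positive without the 97H control, and -0.15 to 1.24 for XPO1, negative without the 97H CDK4/6 inhibitor library; the cause was not tested. A pseudocount of 0.1 raised the median of the oncofetal list to 4.76 and that of the metallothionein list to 6.65. Genes near 0 in 97H and in Huh7 numbered 12 and 6 with limits of 0 and 5 FPKM, and 387 and 185 with 0.1 and 1 FPKM, by construction. Called genes that stayed apart with the XPO1 inhibitor library alone or the combination library alone numbered 2513 and 2465. Read depth, which is unknown, limits what can be said of genes under about 1 FPKM.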
